A study of Mus musculus with 4 samples.

Results

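Arginine, creatine and polyamine enzymes were described in whole mouse kidney through 8 genes: Arg2, Ass1, Asl, Oat, Gatm, Odc1, Srm and Sat1. They were chosen by name with earlier differences between these same 4 arrays in view, so their levels and differences are given as a description. Of the 8 genes, 7 had a probe set that the platform annotation gives to that gene alone, with 10 such probe sets in all, out of 12394 genes and 20393 probe sets named in this way. The only probe set that carries the symbol of Ass1 (argininosuccinate synthase) also carries that of the pseudogene Gm5424, so no value is attributed to Ass1.

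The arrays came from C57BL/6 mice, labelled male and 17 weeks old, and each of 4 groups has 1 array. The GN+Captopril group had glomerulonephritis (GN), an inflammation of the filtering units, brought on from about 8 weeks of age by intraperitoneal horse spleen apoferritin (10 mg on 5 days a week) with Salmonella minnesota lipopolysaccharide as adjuvant (100 µg 3 times a week) for 6 weeks, and drank captopril, an inhibitor of angiotensin converting enzyme, at 100 mg/kg/day. The Saline+Captopril group was injected with 0.15 M NaCl and drank the same drug, the GN+Water group had GN and drank water, and the Saline+Water group had NaCl and water; kidneys were taken after 9 weeks. Groups held 6 mice, and whether the RNA of several mice was pooled for an array is not given in the labels. With 1 array per group no difference below has a replicate check, a p-value or an error, and in whole kidney fewer cells of a type and less RNA per cell cannot be told apart.

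Arginine is made in the proximal tubule, where Ass1 and Asl turn citrulline into arginine for the rest of the body. Arginine then feeds creatine synthesis through Gatm, or is split by arginase into urea and ornithine. Ornithine is either broken down towards glutamate and proline by Oat or decarboxylated by Odc1 to putrescine, the first polyamine, from which Srm makes spermidine, while Sat1 acetylates polyamines for export and breakdown. In the mouse kidney Odc1 is a long-known androgen-induced gene, and Oat is known to be more abundant in kidneys of female rodents.

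On the array labelled GN+Water, Oat lay above the other 3 arrays and Odc1 below them in 2 of its 3 probe sets, so the sequences before the starts of both genes are shown from RefSeq (GRCm38.p6). The promoter table held 5 of the 8 genes, Ass1, Gatm, Oat, Odc1 and Sat1. Odc1 is shown on the forward strand at chr12:17544623-17544807, which is 185 bases ending just before the annotated gene, and Oat on the reverse strand at chr7:132576399-132576648, which is 250 bases. Capitals mark GC boxes (GGGCGG) and CCAAT boxes (CCAAT), each searched on both strands.
Odc1: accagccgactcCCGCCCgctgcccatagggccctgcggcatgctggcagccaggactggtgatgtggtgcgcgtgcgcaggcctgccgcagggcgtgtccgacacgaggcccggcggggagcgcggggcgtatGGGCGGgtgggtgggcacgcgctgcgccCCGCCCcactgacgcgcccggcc
Oat: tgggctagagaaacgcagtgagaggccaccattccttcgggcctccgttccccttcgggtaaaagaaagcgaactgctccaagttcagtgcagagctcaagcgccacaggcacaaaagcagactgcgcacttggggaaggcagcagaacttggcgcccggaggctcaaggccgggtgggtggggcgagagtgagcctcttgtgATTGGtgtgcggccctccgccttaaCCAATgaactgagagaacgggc

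The Odc1 stretch held 3 GC boxes and no CCAAT box, and the Oat stretch held 2 CCAAT boxes and no GC box. Over 32851 RefSeq promoters, 32.7% of the 250-base windows before the start held a GC box and 33.8% a CCAAT box. The Odc1 stretch is shorter than these windows, because 65 bases of its window lie inside the annotated gene. The full 250-base window of Odc1 held 4 GC boxes and no CCAAT box. The 6 letters of an androgen receptor half-site (AGAACA) and those of an oestrogen receptor half-site (AGGTCA) were found in 16.1% and 14.0% of such windows. They were in neither stretch, nor in the full window of Odc1. This says only that these letters are not in these windows. Of the other genes in the promoter table, the window of Gatm held 1 oestrogen receptor half-site, that of Sat1 held 1 androgen receptor half-site and that of Ass1 held neither. The other motifs of the 6 searched, a TATA box (TATAAA) and an E-box (CACGTG), were in neither stretch.

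The arrays labelled GN+Water and Saline+Water stood apart from the rest. On the array labelled GN+Water the inactive-X transcript Xist was at 8.97 (log2 probe set value, the unit of every level below), against 5.02 to 5.21 on the other 3 arrays, and the Y-linked Eif2s3y at 3.43, against 8.02 to 8.29. These values go against its male label, and it is called the array labelled GN+Water throughout. On Saline+Water the median of 18 spike-in probe sets was 10.8, against 7.46 to 7.89 on the others, and its correlation with each other array over all probe sets (Pearson, 22690 probe sets) was 0.945 to 0.966, against 0.982 to 0.994 among the other 3. All 17 measured proximal tubule markers passed the expression filter, a cut on the mean over the 4 arrays, as did 8207 of 12394 genes. The lowest level of any of them on any array was 9.20, against array medians of 6.93 to 6.99. The difference of GN from saline was therefore read first from the pair of captopril arrays, which holds neither array.

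In captopril-treated kidneys the GN array was compared with the saline array. None of the 7 genes was 2-fold apart, against 0.743% of 8207 genes past the expression filter (a mean of at least 6.27, the 40th percentile of all probe sets). At such a share none would be looked for among 7 genes, so this count does not set these enzymes apart. Odc1 and Arg2 were somewhat higher on the GN array, while for Asl, Oat, Gatm, Srm and Sat1 the 2 arrays lay within 0.09 on the log2 scale.

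Odc1, the first and most tightly regulated step of polyamine synthesis, has 3 probe sets. Its probe set of highest mean, 1438761_a_at, was at 12.95 on GN+Captopril against 12.52 on Saline+Captopril, and at 11.98 on the array labelled GN+Water against 12.24 on Saline+Water. The probe set 1437711_x_at was at 12.48 on GN+Captopril against 12.03 on Saline+Captopril, and at 11.53 on the array labelled GN+Water against 11.12 on Saline+Water. The third, 1427364_a_at, was at 11.47 on GN+Captopril against 10.84 on Saline+Captopril, and at 9.86 on the array labelled GN+Water against 11.12 on Saline+Water.
GN+Captopril gave the highest value of the 4 arrays in all 3 probe sets. The difference of GN+Captopril from Saline+Captopril was 0.44, 0.45 and 0.62, or 1.35-fold, 1.36-fold and 1.54-fold higher. Over all genes past the filter the median size of that difference was 0.08, and 3.70% of them (304, itself included) were at least as far apart as the probe set of highest mean. With Saline+Water in place of Saline+Captopril the differences were 0.71, 1.36 and 0.35. The letter codes of these probe sets mark sequence shared between transcripts of a gene (a) or with other sequences (x), so cross-hybridisation to other transcripts could not be told apart.

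Arg2 encodes the mitochondrial arginase, the arginase form known from kidney. Its probe set of highest mean, 1418847_at, was at 6.61 on GN+Captopril against 6.29 on Saline+Captopril, and at 9.53 on the array labelled GN+Water against 4.97 on Saline+Water. The probe set 1438841_s_at was at 5.83 on GN+Captopril against 5.52 on Saline+Captopril, and at 7.90 on the array labelled GN+Water against 5.79 on Saline+Water. Both placed the array labelled GN+Water far above the rest, and they disagreed on whether Saline+Water was lowest. In the captopril pair both gave a difference of 0.31, or 1.24-fold higher with GN, and 7.38% of genes were at least as far apart as 1418847_at. The gene passed the expression filter only through the array labelled GN+Water, since its mean over the 4 arrays was 6.85 and that over the other 3 was 5.95. With Saline+Water as the baseline the GN+Captopril difference was 1.64 in 1418847_at and 0.05 in 1438841_s_at. The level of 4.97 on Saline+Water lay just over the background limit of that array, 4.81.

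**Figure D1:**
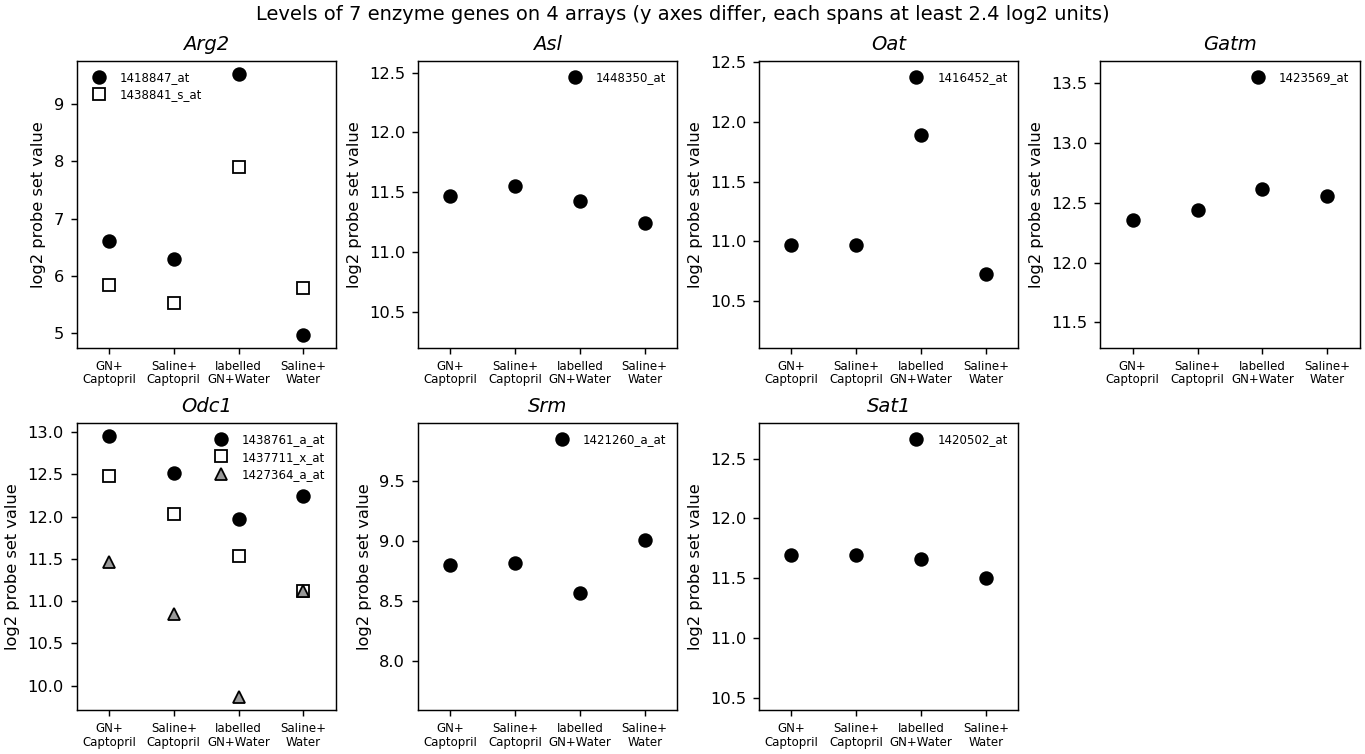
Log2 probe set values (y axis, a separate scale in each panel) of 7 enzyme genes on the 4 arrays (x axis), with 1 symbol per probe set and no error bars because each group has 1 array. Arg2 reached 9.53 and Oat 11.89 on the array labelled GN+Water, while all 3 Odc1 probe sets were highest on GN+Captopril and Asl, Gatm and Sat1 stayed within 0.31 over the 4 arrays.

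Oat, the mitochondrial aminotransferase that moves ornithine towards glutamate semialdehyde, was at 10.97 on GN+Captopril against 10.97 on Saline+Captopril, and at 11.89 on the array labelled GN+Water against 10.73 on Saline+Water. Its level in the captopril pair differed by −0.01, and 87.7% of genes were at least as far apart. Only the array labelled GN+Water was high.

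Asl, which splits argininosuccinate into arginine and fumarate, was at 11.47 on GN+Captopril against 11.55 on Saline+Captopril, and at 11.42 on the array labelled GN+Water against 11.24 on Saline+Water. Gatm, the transamidinase that starts creatine synthesis from arginine and glycine, was at 12.35 on GN+Captopril against 12.44 on Saline+Captopril, and at 12.62 on the array labelled GN+Water against 12.55 on Saline+Water. The range over the 4 arrays was 0.31 for Asl and 0.26 for Gatm, and in the captopril pair the GN array was lower by 0.08 and 0.09, close to the median size over all genes.

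Srm, which builds spermidine from putrescine, was at 8.80 on GN+Captopril against 8.82 on Saline+Captopril, and at 8.57 on the array labelled GN+Water against 9.01 on Saline+Water. Sat1, the acetyltransferase that opens polyamine catabolism and export, was at 11.69 on GN+Captopril against 11.69 on Saline+Captopril, and at 11.66 on the array labelled GN+Water against 11.50 on Saline+Water. Sat1 had the smallest range over the arrays among the 7 genes, 0.20, and Srm was lowest on the array labelled GN+Water by 0.23. The captopril-pair difference was −0.01 for Srm and −0.002 for Sat1.

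Marker lists differed within the captopril pair as well. Of 14 macrophage and monocyte genes past the filter, 13 were at least 1.5-fold higher with GN, against 1.85% of all genes, with a median of 1.18. The summed linear level of the 16 measured genes of that list was 12445 on GN+Captopril and 4384 on Saline+Captopril, and Cd163 lay near background on all 4 arrays. Adipose genes had a median of 0.73 over 3 genes past the filter, with a summed level of the 6 measured genes of 10927 on GN+Captopril and 8832 on Saline+Captopril. Of 6 lymphocyte and plasma cell genes, 3 were at least 1.5-fold higher (list median 0.75), and the immunoglobulin genes Ighm and Jchain were 25.4-fold and 21.5-fold higher with GN. The summed level of the 10 measured genes of that list was 6359 on GN+Captopril and 925 on Saline+Captopril. Of 10 tubular injury genes, 4 were at least 1.5-fold higher (list median 0.37), and the 12 measured genes summed to 7897 on GN+Captopril and 7187 on Saline+Captopril. The androgen-raised kidney list had a median of 0.09 in the captopril pair, against a median difference of 0.00 over all genes. Of its 13 genes past the filter, 12 were above 0 and 1 below. They lay between −0.03 and 0.64, and 1 was at least 1.5-fold higher, Hsd17b11. The part of these lists in the Odc1 and Arg2 values was not tested.

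On water the same question was asked of the array labelled GN+Water and Saline+Water, and 2 of the 7 genes were at least 2-fold apart, against 14.8% of all genes. These were Arg2, higher by 4.56 in 1418847_at (23.6-fold) and by 2.12 in 1438841_s_at (4.33-fold), and Oat, higher by 1.16 (2.23-fold). Arg2 passed the filter only through the array labelled GN+Water, so its place in the count follows in part from the filter. Odc1 gave −0.26, 0.41 and −1.26 in its 3 probe sets, so its direction was not settled. Srm was lower by 0.44, and Asl, Sat1 and Gatm were higher by 0.18, 0.16 and 0.06. Without the array labelled GN+Water, that is with GN+Captopril against Saline+Water, Oat differed by 0.24. Without Saline+Water, that is with the array labelled GN+Water against Saline+Captopril, Arg2 differed by 3.23 and 2.38 in its probe sets (9.41-fold and 5.20-fold higher), Oat by 0.91 (1.88-fold higher) and Odc1 by −0.54, −0.50 and −0.98.

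**Figure D2:**
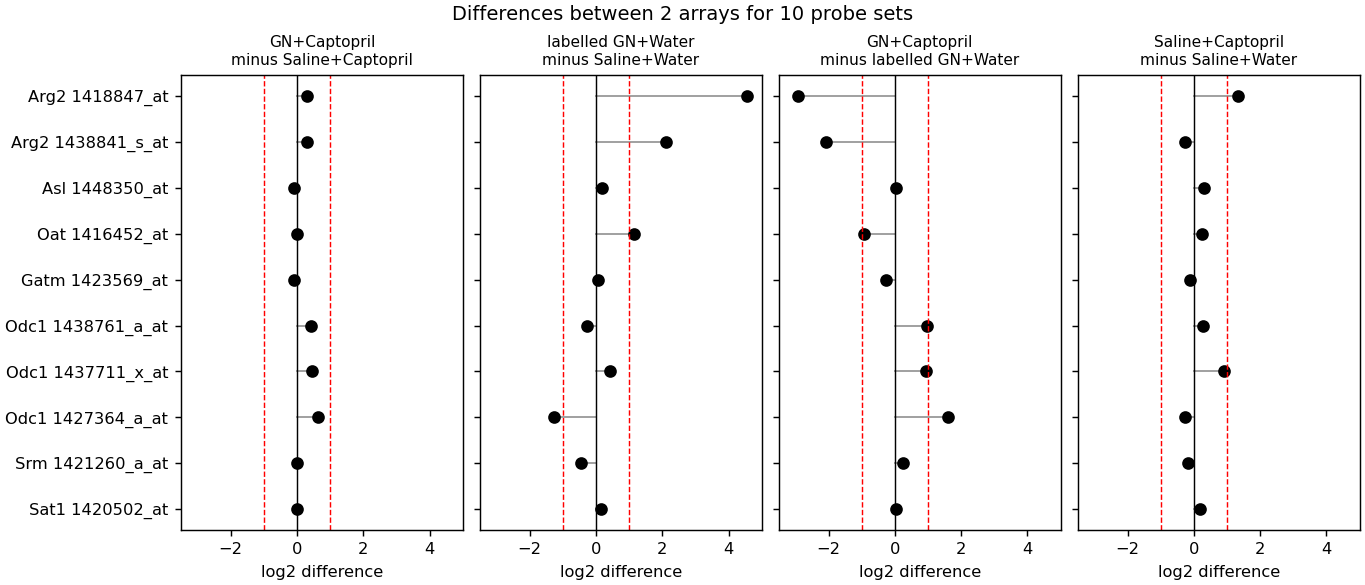
Log2 differences between 2 arrays (x axis) for the 10 probe sets (rows) in 4 comparisons (panels), with dashed lines at a 2-fold difference. No probe set passed a dashed line between GN+Captopril and Saline+Captopril, and Arg2, Oat and Odc1 account for every point past one in the panels that use the array labelled GN+Water.

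Captopril was compared with water in GN kidneys through GN+Captopril and the array labelled GN+Water. Of the 7 genes, 1 was at least 2-fold apart, against 2.51% of all genes, and 3 were at least 1.5-fold apart, against 8.22%. Arg2 was lower on GN+Captopril by 2.92 and 2.07 on the log2 scale (7.57-fold and 4.20-fold). Arg2 passed the filter only through the array labelled GN+Water, so its place in both counts follows in part from the filter. Oat was lower by 0.92 (1.89-fold). Odc1 was higher by 0.98, 0.95 and 1.60 (1.97-fold, 1.93-fold and 3.04-fold), the same direction in each probe set. The comparison rests on the array whose sex-linked transcripts go against its label and has no version without it.

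Captopril was compared with water in saline kidneys through Saline+Captopril and Saline+Water. Here 1 of the 7 genes was at least 2-fold apart, against 8.52% of all genes. At such a share a count of 1 among 7 genes does not set these enzymes apart. The gene was Arg2, higher by 1.32 in 1418847_at (2.50-fold) and lower by 0.26 in 1438841_s_at. Arg2 passed the filter only through the array labelled GN+Water, which is not in this comparison. Its level in 1418847_at on Saline+Water, 4.97, lay just over the background limit of that array, 4.81. Odc1 gave 0.28, 0.91 and −0.28. The other 5 genes differed by 0.31 or less. It has no version without Saline+Water, the array that stood apart in its spike-in controls.

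The array labelled GN+Water was then set against the range of the other 3. Among the 7 genes, 1 lay at least 2-fold outside that range, against 1.58% of all genes, and 2 at least 1.5-fold outside, against 5.25%. Arg2 was above the highest other array by 2.92 and 2.07 in its probe sets. Arg2 passed the filter only through this array, with a mean of 5.95 over the others. Its place in both counts thus follows in part from the filter. Oat was above by 0.91, with 80 genes, itself included, at least as far above. Odc1 was below the lowest other array by 0.26 and 0.98 in its a-type probe sets and inside the range in 1437711_x_at. Srm was below by 0.23 and Gatm above by 0.06, and Asl and Sat1 were inside the range.

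Genes known to differ between the sexes also stood apart on this array. Of 13 androgen-raised kidney genes past the filter, 11 were at least 1.5-fold below the other 3 arrays, against 1.90% of all genes, and 0 were above. Acsm3 was at 6.20 there, against 12.47 to 12.57 on the others, and the transporter gene Slc7a13 at 6.54, against 12.56 to 13.20. Of 6 female-raised kidney genes, 5 were at least 1.5-fold above, against 3.35%, with Slc7a12 at 12.51, against 7.21 to 8.38. Of these 5, Slc22a29 passed the filter only through this array, and without it 4 of 5 were so. The summed linear level of the androgen-raised list was 37163 on the array labelled GN+Water and 89112 to 104990 on the others, and that of the female-raised list was 21442, against 6426 to 9387. Macrophage and monocyte genes were also above, with 11 of 14 at least 1.5-fold so, and tubular injury genes with 6 of 10. Of those 6, Havcr1 and Timp1 passed the filter only through this array, and without them 4 of 8 were so. With the filter set on the mean of the other 3 arrays, a choice made after the values were seen, 3.04% of 8201 genes were at least 1.5-fold above. The proximal tubule list had a median of −0.23 relative to the range of the others, with 3 of 17 genes at least 1.5-fold below. The part of sex, of immune cells or of tubular injury in the values of Arg2, Oat and Odc1 on this array was not tested.

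**Figure D3:**
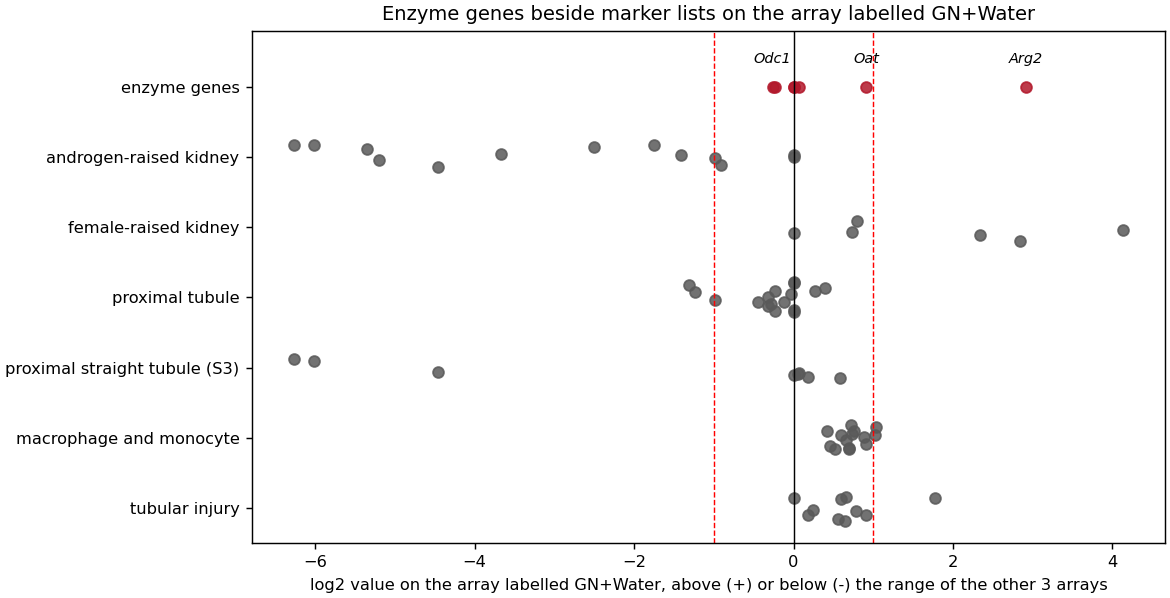
Distance of each gene's log2 value on the array labelled GN+Water from the range of the other 3 arrays (x axis, 0 inside the range, dashed lines at 2-fold) for the 7 enzyme genes and 6 marker lists (rows; points are genes past the expression filter, spread vertically for legibility). Arg2, which passed the filter only through this array, lies at 2.92 and Oat at 0.91. Odc1 lies at −0.26 in its probe set of highest mean, where 17.0% of all genes were at least as far out. Its probe set 1437711_x_at, not drawn, was inside the range. Most of the androgen-raised list lies below 0, and most of the female-raised, macrophage and injury lists above 0.

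The patterns most like those of the members were sought for Arg2 and Oat, whose ranges over the 4 arrays reached 1. The measure was the largest gap between centred values over 4 arrays, which is a description of 4 points. Nearest to Arg2 were the guanylate-binding protein gene Gbp3 (largest gap 0.75), the transporter gene Slc7a12 (0.79) and the transcription factor gene Cebpd (0.87). Nearest to Oat were Sparcl1 (0.02), Scg5 (0.03) and Actn1 (0.05). Oat shared with these a flat captopril pair and a single high array, the one labelled GN+Water.

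Around these enzymes, 7 lists of arginine, creatine, proline and polyamine genes held 79 genes, of which 63 were measured and 48 past the filter. In the captopril pair 0 of the 48 were at least 1.5-fold apart in either direction, against 2.06% of all genes. At such a share few would be looked for among 48 genes, so this count does not set them apart. The count takes the probe set of highest mean for each gene, and Odc1 was 1.54-fold higher in 1427364_a_at. The median difference was −0.02, against 0.00 over all genes. The endothelial nitric oxide synthase gene Nos3 had the highest of these differences, 0.44, at 6.67 on GN+Captopril and 6.23 on Saline+Captopril. The brain-type creatine kinase gene Ckb had the lowest, −0.26, at 9.18 on GN+Captopril and 9.43 on Saline+Captopril. The list medians lay between −0.16 for the creatine genes and 0.03 for the ornithine and proline genes. In the polyamine catabolism list the 7 genes lay between −0.14 and −0.002, with a median of −0.02. Over all genes past the filter the median size was 0.08.

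Relative to the range of the other 3 arrays, 3 of the 48 genes were at least 1.5-fold above on the array labelled GN+Water, against 3.35% of all genes, and 0 below, against 1.90%. They were Arg2, which passed the filter only through this array, Oat and Aoc1, the gene of diamine oxidase, which degrades putrescine and histamine. Aoc1 was at 7.12 on GN+Captopril against 7.13 on Saline+Captopril, and at 8.20 on the array labelled GN+Water against 6.89 on Saline+Water. It was thus 2.09-fold above the highest other array, flat in the captopril pair, and high on the same array as Oat. The other arginase gene, Arg1, was measured but did not pass the filter, at 4.45 on GN+Captopril against 4.40 on Saline+Captopril, and at 4.56 on the array labelled GN+Water against 4.06 on Saline+Water.

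**Figure D4:**
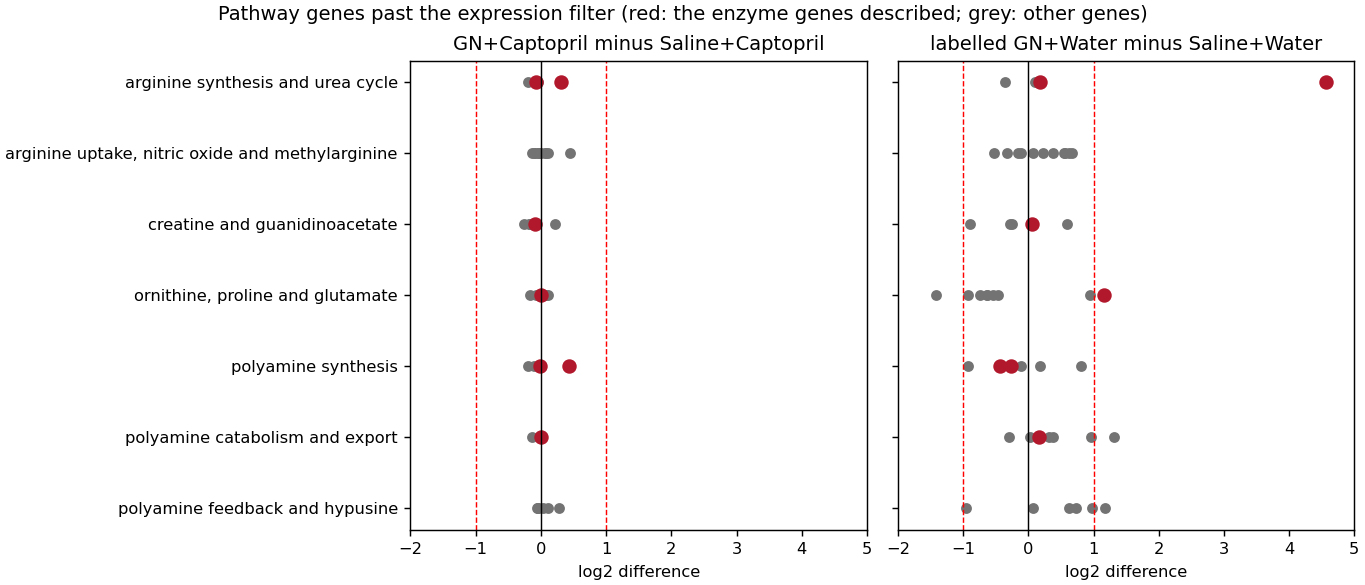
Log2 differences (x axis) of the genes past the expression filter in 7 pathway lists (rows) for GN+Captopril minus Saline+Captopril (left) and the array labelled GN+Water minus Saline+Water (right), with dashed lines at a 2-fold difference and the enzyme genes described above in red. On the left every point lies between −0.26 and 0.44, and on the right points run from −1.42 to 4.56, the last being Arg2.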

How the data were processed

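Biotinylated cRNA from 6 µg of total RNA of whole kidney was put on Affymetrix arrays by the authors, per the labels' protocols. The deposited table holds log2 values per probe set, judged from their range, and the submitters' processing notes name GCOS and RMA without version or role. For the background step, the normalization and the genome build nothing is given in these sources, and no detection calls were used. Array medians lay between 6.93 and 6.99.

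Of 22690 probe sets, 20393 had 1 gene symbol, 691 several and 1606 none, in a platform annotation updated through Entrez IDs (GRCm38.p6). The probe set of highest mean stood for its gene. Differences are subtractions of 2 arrays, counted at 2-fold and 1.5-fold, with no test, since 1 array per group leaves 0 residual degrees of freedom. The number of arrays limits the precision. The background limit of an array was the 90th percentile over its 27 negative-control probe sets. Python 3.11.15 and limma 3.58.1 were used, and the counting was tested on simulated data. These had the same small noise on every array and no array like Saline+Water, so they checked only the counting. Named genes were the 8 enzymes, pathway genes at least 1.5-fold apart in the captopril pair or outside the other arrays on the array labelled GN+Water (up to 4 a list), the 3 nearest patterns, and genes behind the doubt over that array; Nos3, Ckb, Arg1, Hsd17b11, Cd163, Ighm, Jchain, Havcr1, Timp1 and Slc22a29 were named after their values were seen. The members and lists were chosen with earlier results of these data known.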

Additional observations from a re-analysis of the deposited data

Results flagged for a closer look

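In some genes the GN difference on captopril and that on water pointed opposite ways, or the captopril difference in GN and that in saline kidneys did. The difference between them was not tested, as each rests on 4 arrays with 1 per group, and each uses the array labelled GN+Water and Saline+Water. Values are log2 and taken from the probe set of highest mean. For the GN difference, Odc1 was at 0.44 on captopril and −0.26 on water, which are 0.70 apart. Its second probe set gave 0.45 on captopril and 0.41 on water, the same direction, and 1427364_a_at gave 0.62 on captopril and −1.26 on water. Oat was at −0.01 on captopril and 1.16 on water, a gap of −1.16. The gaps were −0.26 for Asl, −0.17 for Sat1 and −0.15 for Gatm, each from differences of 0.18 or less. For the captopril difference, Arg2 was at −2.92 in GN and 1.32 in saline kidneys, a gap of −4.24. In its second probe set both were below 0, at −2.07 in GN and −0.26 in saline kidneys, a gap of −1.81. Oat was at −0.92 in GN and 0.24 in saline kidneys, and Srm at 0.23 in GN and −0.19 in saline kidneys, a gap of 0.43.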

How the results depend on the processing

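No paired analysis was possible because each group has 1 array. Of 284 gene differences recomputed under the alternatives, 276 moved by less than 1.5-fold and 0 changed sign after a 2-fold difference. Many of the 284 could not move. A filter leaves a gene's own value as it is, and so does averaging for a gene with 1 probe set. Most of the 8 that moved came from putting another array in place of 1 of the pair. Of 44 counts of members 32 stayed within 1.5 times. The count of members at least 2-fold apart in the captopril pair was 1 in place of 0 with Saline+Water in place of Saline+Captopril, the gene being Arg2. Between the array labelled GN+Water and Saline+Water it was 1 in place of 2 when the filter stood at the 60th percentile, when GN+Captopril stood in for the array labelled GN+Water, or when Saline+Captopril was the saline array. Between GN+Captopril and the array labelled GN+Water it was 3 in place of 1 at 1.5-fold, 2 when the probe sets of each gene were averaged and 0 with the 60th percentile filter. Between Saline+Captopril and Saline+Water it was 0 in place of 1 with that average or that filter. Outside the other 3 arrays, the count on the array labelled GN+Water was 2 in place of 1 at 1.5-fold, 0 with that filter, and 0 with the filter on the mean of the other 3 arrays, chosen after seeing the data. Both filters leave out Arg2. Without shared probe sets Odc1 and Srm have none left, and the polyamine feedback list had a median of 0.066 in place of 0.68 between the array labelled GN+Water and Saline+Water. The other 195 of 196 list medians moved by less than 1.5-fold.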

Other observations

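Genes of polyamine feedback and hypusine synthesis differed mainly on Saline+Water, a pattern chosen after the values were seen. Of 6 genes past the filter, 4 were at least 1.5-fold higher and 1 lower both on Saline+Captopril and on the array labelled GN+Water, each relative to Saline+Water, with medians of 0.75 and 0.68. Without probe sets that share sequence between transcripts or genes these medians were 0.27 and 0.066, and Oaz1, Dhps and Eif5a rest on such probe sets. Over all genes past the filter, the share at least 1.5-fold higher was 15.6% in the first comparison and 19.6% in the second. The share at least 1.5-fold lower was 10.2% in the first and 15.3% in the second. In the captopril pair 0 of the 6 were 1.5-fold apart, with a median of −0.01. Oaz1, the antizyme that sends the Odc1 protein to degradation, was at 12.65 on GN+Captopril against 12.62 on Saline+Captopril, and at 12.66 on the array labelled GN+Water against 11.68 on Saline+Water. Azin1, the antizyme inhibitor, was at 10.04 on GN+Captopril against 9.76 on Saline+Captopril, and at 9.89 on the array labelled GN+Water against 8.71 on Saline+Water. Saline+Water is the array that stood apart in its spike-in controls, and the part of that in these values was not tested.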
